A study of Mus musculus with 4 samples.

Results

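The genes described here build the stacked membrane discs of the photoreceptor outer segment or hold them in place. They were chosen by name, as the 7 genes Prph2, Rom1, Prom1, Rp1, Rp1l1, Cdhr1 and Fscn2, out of 21829 genes that the tables held after small RNAs were left out and rows sharing a symbol were summed. All 7 were found, each as 1 of the 23021 rows of every table and each with a usable value in every library.

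RNA sequencing was done on retinal cells of mice at postnatal day 12 (P12). Dissociated retina was stained for Cd73, a surface marker of rod photoreceptors encoded by Nt5e, and sorted into a Cd73-positive (Cd73P) and a Cd73-negative (Cd73N) fraction. Both fractions were taken from wildtype (WT) and from Ezh2-cKO mice, which gave 4 groups of 1 library each: Cd73N WT, Cd73N Ezh2-cKO, Cd73P WT and Cd73P Ezh2-cKO. All 4 carried the background strain label slc:ICR. Ezh2 encodes a histone H3 lysine 27 methyltransferase. The Ezh2-cKO mice came from Ezh2-floxed mice crossed with DKK3-Cre mice, in which Cre is made in retinal progenitors, so that the deletion is not limited to rods, and the controls were normal littermates. The number of pooled retinas at P12 is not given in the sources used here. The comparisons ask how strongly each disc gene follows the rod fraction and whether its level differs between the genotypes in either fraction.

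Each photoreceptor renews its outer segment throughout life by adding discs at the base and shedding them at the tip, and in the mouse retina the outer segments grow out in the weeks after birth. Prph2 (peripherin-2) and Rom1 are related tetraspanins that assemble with each other at the rim of the disc, where the membrane is most strongly bent. Prom1 (prominin-1), a pentaspan membrane protein, and Cdhr1, the photoreceptor cadherin, sit at the base where new discs form. Rp1 and Rp1l1 carry doublecortin domains and bind the microtubules of the axoneme that runs along the discs, and Fscn2 is the photoreceptor fascin, a bundler of actin filaments. Mutations in human PRPH2, ROM1, PROM1, RP1, RP1L1 and CDHR1 are linked to inherited retinal degeneration.

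Promoter sequences of 3 members are shown first. RefSeq sequence on GRCm38.p6, 250 bases before to 50 bases after the start site, was held for 5 of the 7 members in 6 entries, since Prom1 had 2 start sites, and not for Rp1 and Rp1l1. The 3 printed below, 5′ to 3′ on the strand of the gene, belong to both partners of the disc rim and to Fscn2, the 3 members with the highest ratio of Cd73P Ezh2-cKO to Cd73P WT. Prom1, which was lower in Cd73P Ezh2-cKO by about as much as Rom1 was higher, is not printed. Capitals mark matches to the motifs searched. The entries lie at chr17:46910228-46910527 on the plus strand for Prph2, chr19:8929307-8929606 on the minus strand for Rom1 and chr11:120361284-120361583 on the plus strand for Fscn2.
Prph2: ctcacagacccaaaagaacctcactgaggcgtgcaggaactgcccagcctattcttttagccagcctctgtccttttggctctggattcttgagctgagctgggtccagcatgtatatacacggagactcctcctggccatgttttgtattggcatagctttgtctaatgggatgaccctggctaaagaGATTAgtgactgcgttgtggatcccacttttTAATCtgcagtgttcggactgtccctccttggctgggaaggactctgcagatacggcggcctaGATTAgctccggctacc
Rom1: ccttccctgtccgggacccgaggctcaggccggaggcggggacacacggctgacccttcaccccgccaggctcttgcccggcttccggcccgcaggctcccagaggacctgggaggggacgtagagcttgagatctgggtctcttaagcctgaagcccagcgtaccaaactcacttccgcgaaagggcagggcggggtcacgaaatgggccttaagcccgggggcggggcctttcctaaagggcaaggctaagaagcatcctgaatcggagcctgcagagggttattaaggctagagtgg
Fscn2: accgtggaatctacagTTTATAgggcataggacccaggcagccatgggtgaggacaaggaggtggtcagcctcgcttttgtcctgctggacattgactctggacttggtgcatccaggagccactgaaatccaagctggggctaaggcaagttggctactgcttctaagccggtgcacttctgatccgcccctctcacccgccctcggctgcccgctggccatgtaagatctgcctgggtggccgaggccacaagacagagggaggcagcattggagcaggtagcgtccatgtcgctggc
On both strands, TAATCC, a motif of the photoreceptor factors Crx and Otx2, was in 0 of the 6 entries and in 7.06% of 32851 promoters of the same length. TGCTGA, a part of the response element of the rod factor Nrl, was also in 0 of 6 and in 19.5% of all promoters. TATAAA was in 1 of 6, that of Fscn2, on the reverse strand with its first base 234 bases before the start site, and in 13.6% of all promoters. TAATC, the first 5 letters of TAATCC and therefore present wherever the longer motif is, was added after the data were seen and was in 2 of 6 and in 22.0% of all promoters. Prph2 held it 3 times, of which the one on the strand of the gene began 30 bases before the start site, and one entry of Prom1 held it 28 bases before its start site. These matches describe the letters of the window and not the binding of a factor.

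All 7 members are annotated as protein coding. On mm9, the build of the tables, Prph2 lies on chromosome 17 at 47047434 to 47061875 on the plus strand with 3 annotated exons, and Rom1 on chromosome 19 at 9001872 to 9003846 on the minus strand, also with 3. Prom1 lies on chromosome 5 at 44384861 to 44492975 on the minus strand with 32 exons, of which 188 bases overlap the oppositely oriented gene Gm16401. The library preparation as described did not mark the strand, so reads of that stretch cannot be told apart. Rp1 lies on chromosome 1 at 4280927 to 4399322 on the minus strand with 2 listed start sites, whereas the GENCODE annotation on the same build places it at 4334224 to 4350473. Rp1l1 lies on chromosome 14 at 64611268 to 64652343 on the plus strand, and Cdhr1 on the same chromosome at 37891035 to 37911497 on the minus strand. Fscn2 lies on chromosome 11 at 120222848 to 120229487 on the plus strand.

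Levels are given as FPKM, which divides the fragments of a gene by exon length and by all mapped fragments of that library, so that levels of different genes may be compared. Between 10322 and 12710 genes reached 1 FPKM in a library. Absolute depth is unknown, but the relative depth read from the widths of the deposited FPKM bounds was 1.01 in Cd73P WT, 1.04 in Cd73P Ezh2-cKO and 1.18 in Cd73N Ezh2-cKO, with Cd73N WT set to 1. Nt5e had 125 and 123 FPKM in the Cd73P libraries and 0.844 and 0.609 in the Cd73N libraries, in the order WT and Ezh2-cKO. Ezh2 had 5.38 FPKM in Cd73P WT, 3.45 in Cd73P Ezh2-cKO, 14.1 in Cd73N WT and 15.9 in Cd73N Ezh2-cKO. In Cd73N, the library labelled Ezh2-cKO therefore held no less Ezh2 than WT, although a level over the whole gene does not show the loss of a floxed exon, and "labelled" is kept below where a direction rests on that library. Xist had 52.2 and 47.0 FPKM in the WT libraries against 240.4 and 95.6 in the Ezh2-cKO libraries, and 4 Y-linked genes together had 26.8 and 27.9 against 0.716 and 0.496, each in the order Cd73N and Cd73P. Genotype and sex composition cannot be told apart in the comparisons of genotypes below. With 1 library per group no difference has a replicate check, no p-value is given, and all standard errors (SE) and 95% intervals cover counting error only.

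The disc genes were abundant in the rod fraction. Together they made up 2.17% of the FPKM of genes with a usable value in Cd73P WT and 2.39% in Cd73P Ezh2-cKO, against 0.169% in both Cd73N libraries. In each Cd73P library 1 row had the status HIDATA (too much data) and no usable level. That gene is missing from the Cd73P shares and ranks, whereas the Cd73N sums include it. Among the genes with a usable value in Cd73P WT, Prph2 ranked 4 and Rom1 ranked 5 by FPKM, Rp1 32, Cdhr1 42 and Prom1 60, while Rp1l1 ranked 504 and Fscn2 1519. The order of the 7 levels was the same in both genotypes of a fraction and differed between the fractions. In Cd73P it ran from Prph2 through Rom1, Rp1, Cdhr1, Prom1 and Rp1l1 to Fscn2, and in Cd73N from Rom1 through Prph2, Cdhr1, Prom1, Rp1 and Rp1l1 to Fscn2. The closest neighbours in these orders were Rp1 and Rp1l1 in Cd73N WT, whose ratio was 1.08 with an interval of 1.02 to 1.14.

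**Figure D1:**
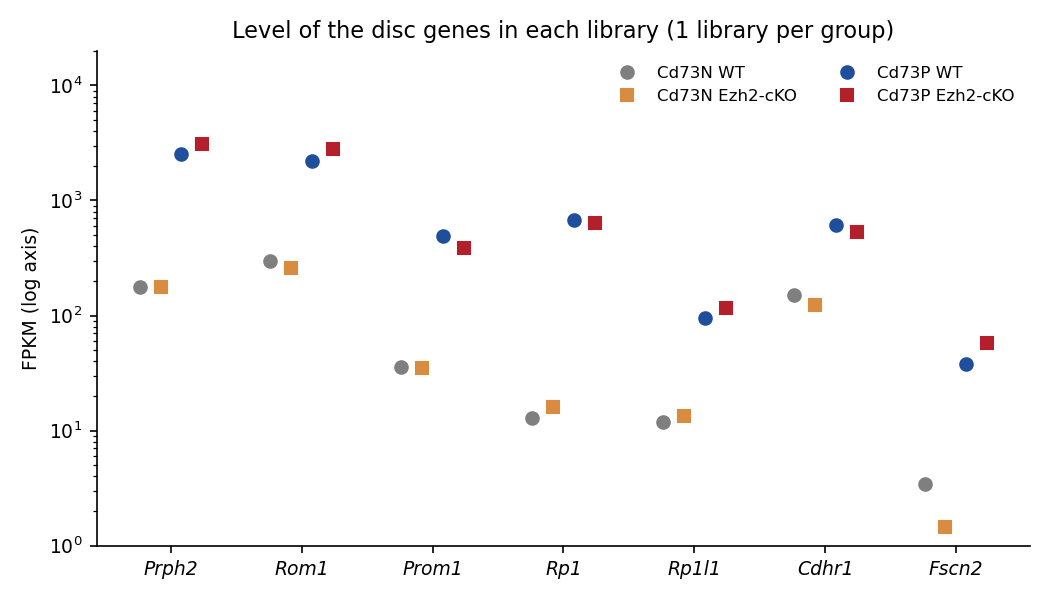
FPKM (log axis) of the 7 disc genes in the 4 libraries, 1 point per library; circles are WT and squares Ezh2-cKO. For every gene both Cd73P points lie above both Cd73N points, and the genotypes lie close together within a fraction except for Fscn2, which had 3.43 and 1.47 FPKM in Cd73N.

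For the rim proteins, Prph2 had 176.6 FPKM in Cd73N WT, 176.2 in Cd73N Ezh2-cKO, 2522 in Cd73P WT and 3093 in Cd73P Ezh2-cKO. Rom1 had 299.7, 256.3, 2196 and 2786 FPKM in the same order. For both genes the Cd73P libraries were far above the Cd73N libraries, and within Cd73P the library labelled Ezh2-cKO was the higher one.

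At the disc base, Prom1 had 35.7 FPKM in Cd73N WT, 34.9 in Cd73N Ezh2-cKO, 491 in Cd73P WT and 387 in Cd73P Ezh2-cKO. Cdhr1 had 151, 124, 606 and 530 FPKM. Both were again highest in Cd73P, but here the WT library stood above the Ezh2-cKO library, and Cdhr1 kept a high level in Cd73N.

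Of the axonemal pair, Rp1 had 12.9 FPKM in Cd73N WT, 16.1 in Cd73N Ezh2-cKO, 670 in Cd73P WT and 641 in Cd73P Ezh2-cKO. Rp1l1 had 11.9, 13.3, 96.0 and 116 FPKM. The levels of these paralogues were thus near each other in Cd73N and far apart in Cd73P. Fscn2, the least abundant member in every library, had 3.43, 1.47, 38.0 and 57.3 FPKM.

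All 7 members were higher in Cd73P than in Cd73N by more than 1.5-fold, the threshold of the study, in WT. Of all genes, 9.07% were higher by this measure, and 16.6% of those with at least 10 FPKM in either library. In the Ezh2-cKO libraries 7 of 7 were higher as well, against 8.40% of all genes and 17.1% of those with at least 10 FPKM. Fold changes were taken on the log2(FPKM + 1) scale, which understates the change of low genes. The median log2 ratio of Cd73P to Cd73N was 3.14 over the members in WT and 3.44 in Ezh2-cKO. It was -0.050 and -0.090 over all genes, and -0.49 and -0.41 over those with at least 10 FPKM in either library.

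The members differed from each other in how far they followed the sort. Rp1 had the largest log2 ratio of Cd73P to Cd73N, 5.59 in WT (SE 0.027) and 5.23 in Ezh2-cKO (SE 0.022). The smallest was that of Cdhr1, 2.001 in WT (SE 0.013) and 2.09 in Ezh2-cKO (SE 0.013). These are 48.2-fold and 4.002-fold differences in WT on this scale, and on this scale the intervals of no other member reached either of them in either genotype. On FPKM without the pseudocount, Fscn2 in Ezh2-cKO, at 39.1-fold (interval 31.5 to 48.5), could not be separated from Rp1, at 39.8-fold (38.6 to 41.1). Between them lay Prph2 with log2 ratios of 3.83 in WT and 4.13 in Ezh2-cKO, Prom1 with 3.74 and 3.43, and Rp1l1 with 2.91 and 3.04. Rom1 went from 2.87 in WT to 3.44 in Ezh2-cKO, and Fscn2 from 3.14 (SE 0.11) to 4.56 (SE 0.097), the widest gap of the 7 between the genotypes.

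The same values were set beside the rod and cone markers by writing the level in Cd73N as a percent of the level in Cd73P. In WT this percent was 1.93 for Rp1, 7.005 for Prph2, 7.27 for Prom1, 9.03 for Fscn2, 12.4 for Rp1l1, 13.6 for Rom1 and 24.9 for Cdhr1. The 11 rod markers with a usable value had a median of 1.95%, and the 10 cone markers, which were all higher in Cd73N, one of 1594%. Rp1 therefore stood at the level of the rod transcription factor Nrl (2.01%) and of the rod phosphodiesterase subunit Pde6a (1.95%). Another 5 rod markers lay lower, between 0.945% and 1.80%. The last 4 had a higher percent, 9.53 for the arrestin Sag, 16.0 for the transducin subunit Gngt1, 18.0 for recoverin Rcvrn and 18.1 for the phosphodiesterase subunit Pde6g. The study also refers to bipolar cells that carry recoverin, so Rcvrn is not limited to rods. Rp1l1 and Rom1 lay in the range of these 4 markers and Cdhr1 above it, and Prph2, Prom1 and Fscn2 lay between the lower and the higher rod markers. In bulk samples such as these, fewer cells of a type and less RNA per cell cannot be told apart.

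In Ezh2-cKO the percent was 2.51 for Rp1, 5.69 for Prph2, 9.03 for Prom1, 2.56 for Fscn2, 11.4 for Rp1l1, 9.20 for Rom1 and 23.4 for Cdhr1. The median of the rod markers was 0.682% and that of the cone markers 4663%. Nrl went from 2.01% in WT to 0.682% in Ezh2-cKO and the cyclic nucleotide channel subunit Cnga1 from 0.945% to 0.319%, whereas Rp1, close to Nrl in WT, went from 1.93% to 2.51%. All 11 rod markers had a lower percent in Ezh2-cKO. Among the members Rp1 and Prom1 had a higher one and the other 5 a lower one, with the largest shift in Fscn2. The median over the members was 9.03% in both genotypes, but it was the value of Fscn2 in WT and that of Prom1 in Ezh2-cKO.

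**Figure D2:**
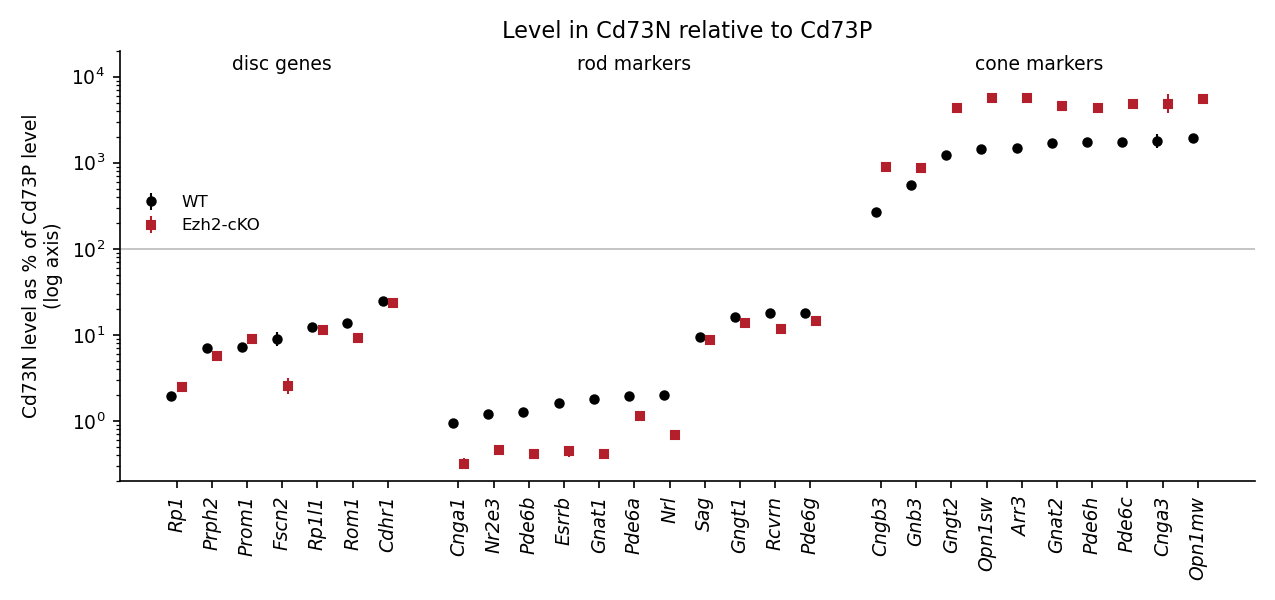
Level in Cd73N as a percent of the level in Cd73P (log axis) for the 7 disc genes, 11 rod markers and 10 cone markers, in WT (black circles) and Ezh2-cKO (red squares) with 95% counting intervals; the grey line is 100%. The disc genes span 1.93 to 24.9% in WT, and all 11 rod markers lie lower in Ezh2-cKO than in WT while Rp1 and Prom1 lie higher.

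Because a ratio of 2 genes inside a library does not depend on scaling between libraries, both pairs of relatives were also compared within each library. Prph2 had 0.589 times the level of Rom1 in Cd73N WT (SE 0.0086) and 0.687 times in Cd73N Ezh2-cKO (SE 0.0093). In Cd73P the ratio was 1.15 in WT (SE 0.0048) and 1.11 in Ezh2-cKO (SE 0.0041). Rom1 was thus the more abundant partner in Cd73N and Prph2 in Cd73P, in both genotypes. Cd73N is not free of photoreceptor RNA, since all 10 cone markers were higher there and none of the 12 rod markers was at 0. Which of its cells carried Prph2 and Rom1 was not tested.

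Rp1 had 1.08 times the level of Rp1l1 in Cd73N WT (SE 0.031) and 1.21 times in Cd73N Ezh2-cKO (SE 0.030). In Cd73P the ratio was 6.98 in WT (SE 0.059) and 5.51 in Ezh2-cKO (SE 0.043). Both ratios were higher in Ezh2-cKO than in WT within Cd73N and lower within Cd73P, and no intervals of the 4 libraries overlapped for Prph2 and Rom1 or for Rp1 and Rp1l1.

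**Figure D3:**
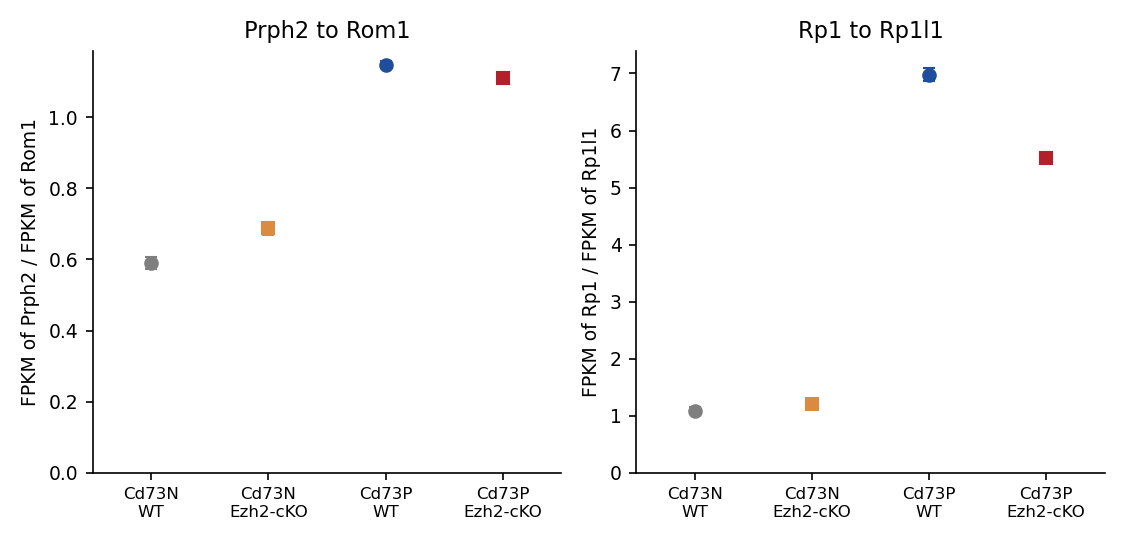
Ratio of the FPKM of Prph2 to that of Rom1 (left) and of Rp1 to that of Rp1l1 (right) in each library, with 95% counting intervals and axes from 0. The first ratio lies at 0.589 and 0.687 in Cd73N and at 1.15 and 1.11 in Cd73P; the second is near 1 in Cd73N and 6.98 and 5.51 in Cd73P.

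Between the genotypes, 0 of 7 members passed 1.5-fold in Cd73P, the rod fraction. Of all genes 2.26% were higher and 2.39% lower in Ezh2-cKO, and of those with at least 10 FPKM 3.23% were higher and 2.08% lower. The log2 ratio of Cd73P Ezh2-cKO to Cd73P WT was 0.29 for Prph2 (SE 0.0046), 0.34 for Rom1 (SE 0.0066) and 0.27 for Rp1l1 (SE 0.015). It was -0.34 for Prom1 (SE 0.010), -0.19 for Cdhr1 (SE 0.0076) and -0.063 for Rp1 (SE 0.0057). The rim pair lay on one side of 0 and both genes of the disc base on the other, and the axonemal pair was divided.

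Fscn2 stood apart in Cd73P with a log2 ratio of 0.58 (SE 0.047, interval 0.49 to 0.67). Its 38.0 FPKM in WT and 57.3 FPKM in Ezh2-cKO make 1.49-fold with the pseudocount of 1 and 1.51-fold without it, so that the call at 1.5-fold depended on the pseudocount. Without it, the interval ran from 1.41-fold to 1.61-fold.

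The median log2 ratio of the members in Cd73P was 0.27, against 0 for all genes and -0.046 for those with at least 10 FPKM. All 7 counting intervals lay off 0, 4 above it and 3 below it, but how far 2 libraries of one genotype would differ is not known. Other marker lists moved in the same comparison. The 11 usable rod markers had a median of 0.42, with 3 higher by 1.5-fold, and their summed level went from 17008 FPKM in WT to 24125 in Ezh2-cKO. The 10 cone markers had a median of -0.99 with 8 lower, and their sum went from 422 to 200.3 FPKM with 1 marker below 1 FPKM in each library. The 8 Müller glia markers were all higher, from a sum of 123 FPKM to 259, and 6 of 8 bipolar markers were lower, from 180.4 to 61.9. Their part in the differences of the members was not tested. When the libraries were scaled to the rod markers, Prph2, Rom1 and Rp1l1 had log2 ratios of -0.12, -0.076 and -0.14, and Prom1 and Cdhr1 passed 1.5-fold with -0.76 and -0.61. This scaling changes the log2 FPKM of every gene in Cd73P Ezh2-cKO by -0.42, and ratios of low genes move less because of the pseudocount. With it, 2309 of 21704 genes were lower and 197 higher.

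In Cd73N 1 of 7 members passed 1.5-fold, Fscn2, which was lower in the library labelled Ezh2-cKO. Of all genes 1.71% were lower and 7.18% higher, and of those with at least 10 FPKM 3.64% were lower and 8.06% higher. The log2 ratio of Fscn2 was -0.85 (SE 0.14, interval -1.12 to -0.58), from 3.43 to 1.47 FPKM. Both levels are low, and with at least 10 FPKM required Fscn2 was not tested and 0 of the other 6 members were called. Rom1 had a log2 ratio of -0.22 (SE 0.021), Cdhr1 of -0.28 (SE 0.016), Rp1l1 of 0.14 (SE 0.038) and Rp1 of 0.30 (SE 0.034). Prph2 and Prom1, at -0.0038 and -0.032, had intervals that included 0.

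The median of the members in Cd73N was -0.032, that of all genes 0, and that of genes with at least 10 FPKM in either library -0.16. In these libraries the median log2 ratio of the rod markers was -0.70, with 7 of 12 lower, although their summed level was 1740 FPKM in WT and 1800 in Ezh2-cKO. The largest parts of the rod sum were Pde6g, Sag, Rcvrn and Gngt1, with 495, 389, 384 and 272 FPKM in WT, and none of them was called. The summed level of the Müller glia markers went from 1236 to 5734 FPKM, with 8 of 8 higher, that of the cone markers from 4721 to 6078, with 3 of 10 higher, and that of the bipolar markers from 1987 to 1136, with 5 of 8 lower. Amacrine markers summed to 32.5 and 78.6 FPKM, with 2 of 6 higher and most of the sum from Pax6 (20.4 and 63.5 FPKM). Ganglion cell markers summed to 14.0 and 39.1, with 1 of 6 higher, Thy1 (6.52 and 30.3 FPKM), and 1 lower, and microglia markers to 49.8 and 72.2, with 3 of 5 higher. None of the 12 rod or 10 cone markers was at 0, and the part of these shifts in the values of the members was not tested. Scaling to the rod markers adds 0.81 to the log2 FPKM of every gene in Cd73N Ezh2-cKO. Ratios of low genes move less because of the pseudocount, and that of Fscn2 went from -0.85 to -0.31. After this scaling 4 members were higher and 0 lower, beside 8855 higher and 42 lower of 21703 genes.

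**Figure D4:**
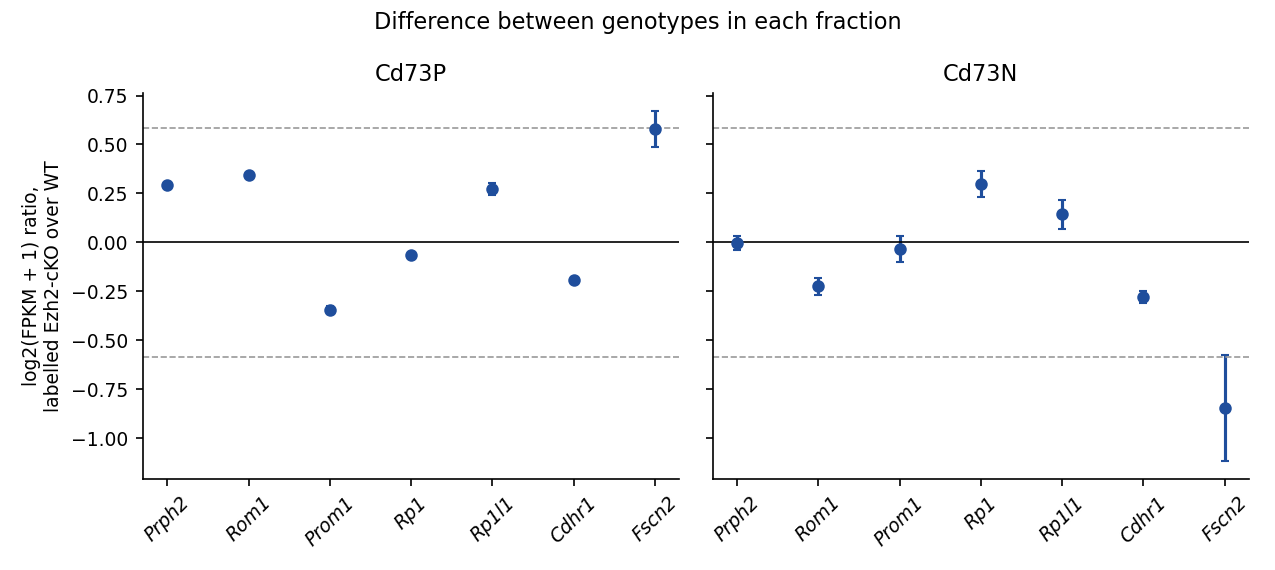
Ratio of the library labelled Ezh2-cKO to the WT library on the log2(FPKM + 1) scale for each disc gene in Cd73P (left) and Cd73N (right), with 95% counting intervals; dashed lines mark 1.5-fold. In Cd73P the values run from -0.34 for Prom1 to 0.58 for Fscn2, just inside the line, and in Cd73N only Fscn2, at -0.85, lies beyond it.

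Set side by side, the genotype ratios of Rom1 were 0.34 in Cd73P and -0.22 in Cd73N, those of Fscn2 0.58 and -0.85, and those of Rp1 -0.063 and 0.30. The remaining 4 members had either the same sign in both fractions or, for Prph2, a Cd73N value within its counting error of 0. No test of the difference between the fractions was possible with 1 library in each group.

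The 7 patterns over the 4 libraries were also compared with each other, each as log2(FPKM + 1) with the mean of the gene removed. The closest pair was Rom1 and Rp1l1, at a Euclidean distance of 0.321, and the farthest were Rp1 and Cdhr1 at 3.39. Prph2 lay nearer to Prom1 (0.596) than to its partner Rom1 (0.839). Prom1 was nearest to the mean pattern of the members (0.342), followed by Prph2 (0.434) and Rom1 (0.449), and Cdhr1 (1.55) and Rp1 (1.87) were farthest from it. Among 7616 other genes, the 5 nearest to the mean pattern included Tdrd7 (0.130), Ccdc126 (0.185), Ramp3 (0.206) and Pex5l (0.209). Tdrd7, the nearest of all, had 10.9, 10.3, 142 and 156 FPKM in Cd73N WT, Cd73N Ezh2-cKO, Cd73P WT and Cd73P Ezh2-cKO. These distances rest on 4 libraries that share 2 fractions and 2 genotypes and are a description.

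**Figure D5:**
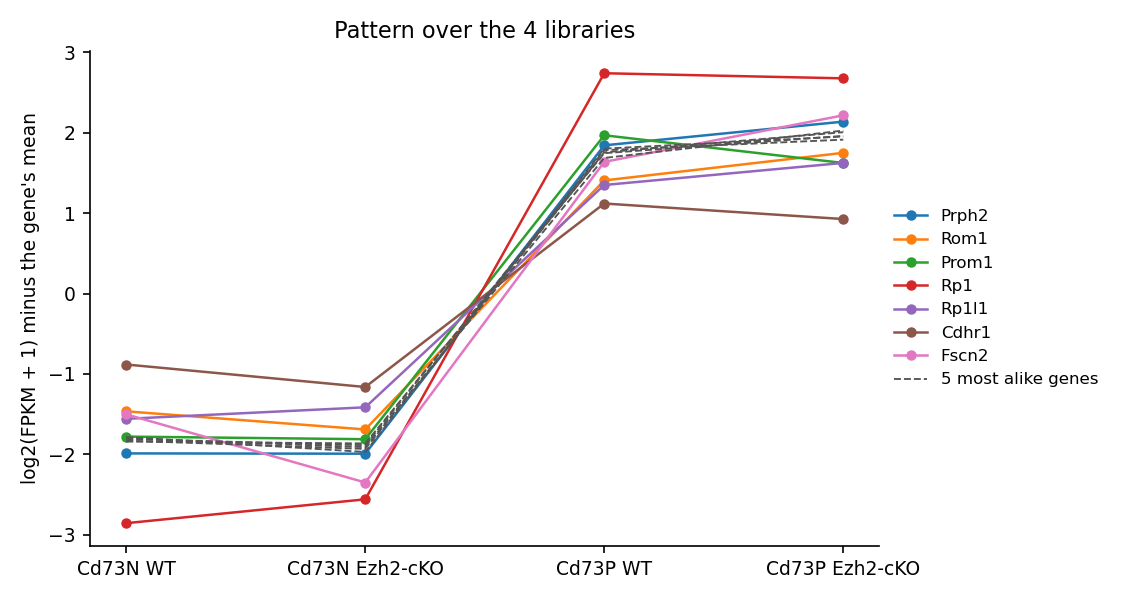
Log2(FPKM + 1) of each disc gene with its mean over the 4 libraries removed (coloured lines) and of the 5 genes nearest to the mean pattern (dashed); lines join libraries only to guide the eye. Rp1 has the steepest step between the fractions and Cdhr1 the flattest, and Fscn2 separates the genotypes in opposite directions in the 2 fractions.

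The 3 lists of related genes place the members among their neighbours in the cell. Of 11 genes for other outer segment membrane proteins, 10 were in the tables and 9 had a usable value in every library. Of these 9, 8 were higher in Cd73P than in Cd73N in each genotype, with a median log2 ratio of 2.86 in WT and 3.10 in Ezh2-cKO. Between the genotypes in Cd73P the median was 0.25 and 1 of 9 passed 1.5-fold. This was Rdh8, a retinol dehydrogenase of the outer segment, with 78.3 FPKM in WT and 129 in Ezh2-cKO (log2 ratio 0.71). Next were Slc24a1, the rod cation exchanger, with 162 and 234 FPKM (0.53), and Gucy2f, a retinal guanylate cyclase, with 40.1 and 52.5 FPKM (0.38). Between the Cd73N libraries 5 of 10 were lower by 1.5-fold where Ezh2-cKO was the label, with a median of -0.27, beside the 1.71% of all genes given above.

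Of 11 genes of the connecting cilium and axoneme, 10 were higher in Cd73P in each genotype, with a median log2 ratio of 2.01 in WT and 1.85 in Ezh2-cKO. Between the genotypes in Cd73P 0 of 11 passed 1.5-fold and the median was 0.13. The largest ratios were those of BC027072, the mouse counterpart of the cilium gene PCARE, with 85.6 FPKM in WT and 128 in Ezh2-cKO (log2 ratio 0.58), Cep290 with 26.6 and 18.6 FPKM (-0.49) and Rpgr with 13.6 and 10.2 FPKM (-0.39). Cep290 and Rpgr encode proteins of the connecting cilium. In Cd73N 1 of 11 was higher and the median was 0.21.

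The list of paralogues of the members held 11 genes, of which 5 reached 1 FPKM in either library of a fraction comparison and 4 in a genotype comparison. Most of the others were too low to pass 1.5-fold with the pseudocount in any direction. Of the 11, 1 was higher in Cd73P in each genotype, Dcdc2a, a doublecortin-domain gene with 0.856 FPKM in Cd73N Ezh2-cKO and 3.36 in Cd73P Ezh2-cKO. Lower in Cd73P were 4 in WT and 5 in Ezh2-cKO. Of all genes with 1 row per symbol, 6038 of 21527 were lower in WT and 6297 of 21526 in Ezh2-cKO. The paralogues named here, Fscn1, the widely expressed fascin, among them, were chosen for description after their values were seen. Fscn1 had 176 FPKM in Cd73N WT, 121 in Cd73N Ezh2-cKO, 7.67 in Cd73P WT and 3.82 in Cd73P Ezh2-cKO, and its log2 ratio of Cd73P to Cd73N was -4.35 in WT (SE 0.066). Fscn1 was thus the abundant fascin outside the rod fraction and Fscn2 the abundant one inside it. Between the genotypes in Cd73P, Fscn1 was the only one of the 11 paralogues past 1.5-fold, with a log2 ratio of -0.85 (SE 0.093), beside the 0.58 of Fscn2. In Cd73N 3 paralogues were higher in the library labelled Ezh2-cKO. These were Dcx, from 1.36 to 4.49 FPKM, Dclk1, from 5.17 to 9.08, and Cdhr4, from 0.185 to 0.794, and the first of them, doublecortin, is a microtubule protein of immature neurons.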

How the data were processed

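RNA was analysed from 4 sorted retinal fractions, 1 library per group. Per the methods and the submitters' processing notes, single-end reads of 36 bases were mapped by the authors to mm9 (TopHat2 2.0.8b, at most 50 hits per read), and Cufflinks 2.1.1 gave the FPKM of each RefSeq gene. Each deposited table listed FPKM with its bounds and a status. FPKM was not scaled between libraries. The deposited bounds (4 SE wide) gave counting errors of 0.214% to 10.8% for the members, although 16 of their 28 values lay above and 4 below their own bounds, so that only the width of the bounds was used.

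Rows of 1 symbol were summed and 729 small RNA symbols left out. Log2(FPKM + 1) ratios were formed for 4 comparisons with a pseudocount of 1, over genes of OK status, and called at 1.5-fold. List medians used genes with at least 1 FPKM in either library. Groups came from the sample titles. The members and lists were chosen with earlier results of these data known. Besides the members, at most 3 genes were named by rule from the outer segment membrane list and from the cilium list. They were those with the largest ratio between the genotypes in Cd73P and at least 10 FPKM. The 5 genes nearest to the mean pattern were added. Some genes that these rules name are not reported here. Named genes of the marker lists and the paralogues were chosen after their values were seen. The calling step was run on simulated counts of genes with at least 10 FPKM, with counting noise only and planted 2-fold changes. That run holds no spread between animals and so cannot show how reliable the calls are here. Alternatives were pseudocounts of 0.1 and 5, no pseudocount, 3 scalings between libraries, a 2-fold threshold, a minimum of 10 FPKM, bounds that do not overlap, symbols with 1 row only and, chosen after seeing the data, the centre of the bounds. Python 3.11.15, numpy 2.4.6, pandas 2.3.3 and matplotlib 3.10.9 were used.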

Additional observations from a re-analysis of the deposited data

Results flagged for a closer look

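For 4 of the 7 members the ratio of the library labelled Ezh2-cKO to WT had opposite signs in the fractions. The log2 ratio in Cd73P minus that in Cd73N was 1.43 for Fscn2, 0.57 for Rom1, 0.30 for Prph2 and -0.36 for Rp1. Fscn2, Rom1 and Prph2 had a positive ratio in Cd73P and a negative one in Cd73N, and Rp1 the opposite. The negative value of Prph2 in Cd73N, -0.0038, was within its counting error and turned positive under all 3 scalings between libraries. Prom1, with ratios of -0.34 and -0.032, had the same sign in both fractions and a difference of -0.31, about as large as that of Prph2. With 1 library per genotype in each fraction, the difference was not tested.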

How the results depend on the processing

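All 7 members stayed higher in Cd73P than in Cd73N in both genotypes under every alternative run but 1. Scaling the libraries to the rod markers, which by construction asks whether a gene follows the sort more or less than those markers, turned 6 of 7 lower in WT and 7 of 7 lower in Ezh2-cKO, with medians of -1.82 and -3.00, where 13059 of 21702 and 13638 of 21701 genes were lower and 3 and 2 higher. The log2 ratios then were -1.82 for Prph2, -2.78 for Rom1, -1.79 for Prom1, -2.17 for Rp1l1, -3.56 for Cdhr1 and -1.35 for Fscn2 in WT, where Rp1 had 0.018. In Ezh2-cKO they were -3.00, -3.69, -3.30, -3.00, -4.76 and -0.83 in the same order, and -1.67 for Rp1. Between the genotypes in Cd73P, the count of 0 became 1 (Fscn2, higher) with a pseudocount of 0.1, without a pseudocount and with median scaling, and 2 (Prom1 and Cdhr1, lower) with rod scaling. In Cd73N the count of 1 became 0 with a pseudocount of 5, a 2-fold threshold or a minimum of 10 FPKM, and 4 with rod scaling, all higher. Prph2 and Prom1 in Cd73N changed sign under all 3 scalings. Rod scaling changed the log2 FPKM of the numerator library by -5.68 and -7.20 between fractions and by -0.42 and 0.81 between genotypes. Median scaling changed it by 0.31 and 0.28, and by 0.047 and 0.086. The pseudocount was added after scaling, so that ratios of low genes moved less. In WT, Fscn2 thus had a less negative rod-scaled ratio than Prph2, although its level in Cd73N was the higher percent of that in Cd73P (9.03 against 7.005). The remaining 34 of 44 counts of members kept their direction and stayed within 1.5 times. With the centre of the bounds, the ratio of Prph2 to Rom1 became 0.627 in Cd73N WT, 0.730 in Cd73N Ezh2-cKO, 1.22 in Cd73P WT and 1.18 in Cd73P Ezh2-cKO. That of Rp1 to Rp1l1 became 7.28 in Cd73P WT and 5.75 in Cd73P Ezh2-cKO. These shifts exceeded the counting errors, but which gene was higher did not change.

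No paired analysis was possible, since each group held 1 library. At the earlier ages the paper took both fractions from the same retinas, and the sources do not state this for P12. A fit with fraction and genotype as additive terms, which would take the genotypes as replicates of the fraction difference, was not run. With 1 library per group no library was left out, and the spread between animals is unknown. Counting error limits mainly Fscn2 in Cd73N, with an SE of up to 10.8% of its level.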
